A study of Mus musculus with 11 samples.

Results

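Antigen-experienced CD8 T cells were compared with naive CD8 T cells from mouse spleen by ATAC-seq, where a transposase inserts sequencing adapters into accessible DNA, so that open regions appear as peaks of reads. The antigen-experienced cells were sorted as CD44-positive, CD62L-positive and YFP-positive. The naive cells were sorted as CD44-negative, CD62L-positive and YFP-positive. Both carried the Tcf7-YFP reporter, so cells without reporter signal were left out on both sides. Each group had 1 library, 2 of the 11 libraries of the series, and no difference between them has a replicate check or a test. The labels used here give no strain, age, number of mice or antigen, and what the antigen-experienced cells had met is not stated. The other libraries came from CD8 T cells activated in culture for 3 days (effector cells, 1 library) or cultured to day 9 after a sort by YFP at day 3 (8 libraries), and they serve below only as a yardstick.

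CD44 is an adhesion receptor that T cells keep at a high level once they have responded to antigen or to homeostatic cytokines. CD62L lets cells enter lymph nodes and is kept by naive and central memory cells, as is TCF-1, the transcription factor encoded by Tcf7. CD8 T cells with CD44 and CD62L therefore have a memory phenotype. Such cells are known for fast production of interferon-gamma and chemokines and for dependence on cytokines that signal through the interleukin-2 receptor beta chain, and their enhancers are known to be bound by T-box and RUNX factors.

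The antigen-experienced library held 23.5 M (mega) tags and 50256 peaks of 172 bp, and the naive library 37.5 M tags and 57882 peaks of 132 bp. A value below is the normalized tag count of a peak, which the caller gives as tags in the peak window per 10 M tags of the library. The weakest peak had a value of 3.41 (8 tags) in the antigen-experienced list and 2.67 (10 tags) in the naive list. The caller dropped 46.4% of putative peaks in the antigen-experienced library and 46.7% in the naive library because they stood too little above the surrounding 10 kb. A region missing from a list is thus not shown to be closed. Depth, window width and sort differ between the libraries together with the groups, and their parts in a difference cannot be told apart.

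Overlapping peaks were merged on chromosomes 1 to 19 and X into 64877 regions. Shared regions, called in both lists, numbered 43100, which was 85.8% of the antigen-experienced regions and 74.6% of the naive regions. A further 7112 regions were called in antigen-experienced cells alone (gained, 14.2% of their 50212 regions). In naive cells alone 14665 were called (lost, 25.4% of their 57765 regions). With the same number of strongest peaks taken from both lists, the counts were 9864 gained and 9809 lost. For shared regions the difference is log2(value + 1) of antigen-experienced minus naive cells, minus the median of that difference over all shared regions, which was 0.16. A region counts as higher or lower when it was at least 2-fold from that median. A positive difference means higher in antigen-experienced cells throughout.

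The promoters below are those of the 7 list genes whose promoter window overlapped a shared region past 2-fold, and are shown because the called region overlaps or adjoins them. They are the 250 bases before the gene start in RefSeq on GRCm38.p6, the assembly behind build mm10, written from 5′ to 3′ on the strand of the gene. Capitals mark matches on either strand to the 12 motifs searched, which are given with their shares further on. Ifng (chr10:118440796-118441045, plus strand), Xcl1 (chr1:164935523-164935772, minus strand), Klra1 (chr6:130386875-130387124, minus strand), Cxcr3 (chrX:101734148-101734397, minus strand), Tbx21 (chr11:97115332-97115581, minus strand) and Il18rap (chr1:40515112-40515361, plus strand) were higher in antigen-experienced cells. Pdcd1 (chr1:94052554-94052803, minus strand), which encodes the inhibitory receptor PD-1, was lower. The called region covered 131 to 173 of the 250 printed bases in Ifng, Xcl1, Klra1 and Cxcr3, 65 in Pdcd1, 63 in Il18rap and 0 in Tbx21, where it lay just past the start.
Ifng: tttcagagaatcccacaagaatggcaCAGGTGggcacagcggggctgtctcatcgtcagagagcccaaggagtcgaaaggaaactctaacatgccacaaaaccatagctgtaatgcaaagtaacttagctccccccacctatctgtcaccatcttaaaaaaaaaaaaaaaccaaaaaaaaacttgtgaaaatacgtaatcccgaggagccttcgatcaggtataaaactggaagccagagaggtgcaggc
Xcl1: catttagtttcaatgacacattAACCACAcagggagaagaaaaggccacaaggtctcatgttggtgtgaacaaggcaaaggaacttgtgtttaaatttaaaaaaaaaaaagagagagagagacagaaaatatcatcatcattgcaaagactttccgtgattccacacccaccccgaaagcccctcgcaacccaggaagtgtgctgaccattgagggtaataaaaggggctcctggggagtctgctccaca
Klra1: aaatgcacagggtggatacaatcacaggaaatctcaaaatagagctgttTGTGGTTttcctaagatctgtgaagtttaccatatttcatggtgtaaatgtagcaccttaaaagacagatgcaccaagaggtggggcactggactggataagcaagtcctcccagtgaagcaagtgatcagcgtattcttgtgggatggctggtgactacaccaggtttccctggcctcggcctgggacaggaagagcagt
Cxcr3: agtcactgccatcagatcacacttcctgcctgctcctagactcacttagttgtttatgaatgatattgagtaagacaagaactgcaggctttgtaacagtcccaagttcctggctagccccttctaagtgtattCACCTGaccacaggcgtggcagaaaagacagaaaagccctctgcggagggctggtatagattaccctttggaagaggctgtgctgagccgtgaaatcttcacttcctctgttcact
Tbx21: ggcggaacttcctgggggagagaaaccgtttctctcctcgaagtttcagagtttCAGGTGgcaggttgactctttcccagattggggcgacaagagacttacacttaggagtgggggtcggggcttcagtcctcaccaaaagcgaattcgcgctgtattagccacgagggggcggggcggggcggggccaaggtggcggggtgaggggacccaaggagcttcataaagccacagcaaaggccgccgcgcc
Il18rap: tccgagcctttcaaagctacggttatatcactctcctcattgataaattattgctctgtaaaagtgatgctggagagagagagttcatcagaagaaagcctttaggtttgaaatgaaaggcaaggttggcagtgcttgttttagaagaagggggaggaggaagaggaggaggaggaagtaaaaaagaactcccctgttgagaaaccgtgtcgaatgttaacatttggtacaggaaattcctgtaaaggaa
Pdcd1: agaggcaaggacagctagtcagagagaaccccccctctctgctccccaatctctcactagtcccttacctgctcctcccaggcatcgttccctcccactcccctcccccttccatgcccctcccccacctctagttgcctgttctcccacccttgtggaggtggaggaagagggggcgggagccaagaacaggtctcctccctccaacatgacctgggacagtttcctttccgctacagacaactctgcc
The capitals in Xcl1 and Klra1 are the RUNX motif TGTGGTT, which begins 228 and 201 bases before the start, inside the region called there. Those in Ifng, Cxcr3 and Tbx21 are the E-box CACCTG, 224, 116 and 196 bases before the start. The one in Cxcr3 lay inside the region, the one in Ifng began 25 bp outside it and the one in Tbx21 209 bp outside it. In Pdcd1 and Il18rap none of the motif letters occurred in this window.

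Most shared regions held like values in both libraries, and more were higher than lower in antigen-experienced cells. Of the 43100 shared regions, 1579 (3.66%) were at least 2-fold higher and 462 (1.07%) at least 2-fold lower, together 4.74%. Thus 77.4% of the regions past 2-fold were higher, or 90.3% without centring on the median. At 4-fold, 175 were higher and 13 lower. The centred difference had an SD of 0.475 over regions and ran between -2.71 and 4.21. Higher regions had a median value of 24.3 in antigen-experienced and 6.93 in naive cells, and lower regions 8.10 in antigen-experienced and 19.6 in naive cells. Among the 21633 regions whose mean value was at least 20, 2.72% were higher and 0.545% lower. A region below the call in 1 list counts as gained or lost and is absent from these shares. The weakest called value was 3.41 in antigen-experienced and 2.67 in naive cells. The part of this in the excess of higher regions was not tested. In bulk libraries, fewer cells with an open region and less open DNA per cell cannot be told apart.

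**Figure D1:**
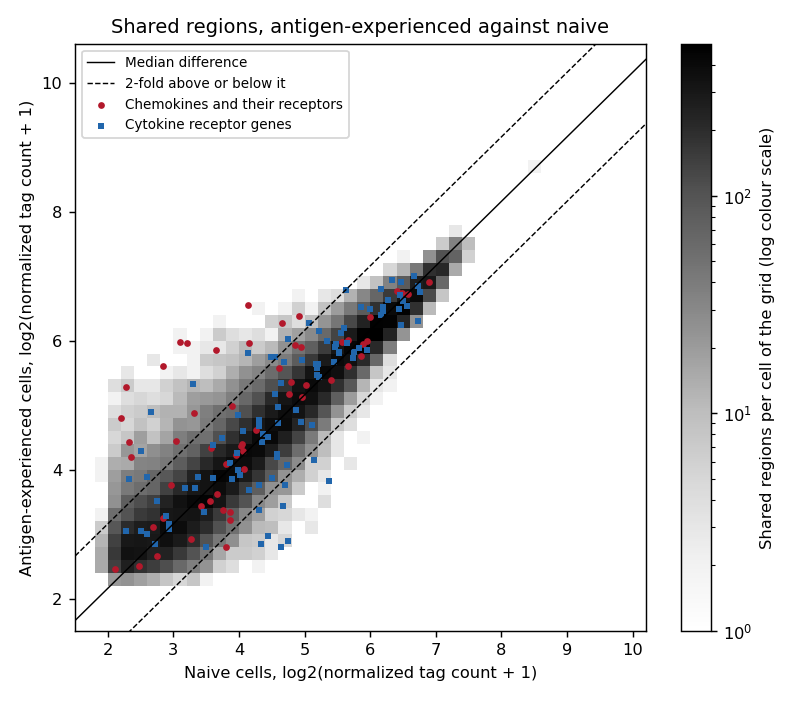
Values of the 43100 shared regions as log2(normalized tag count + 1), antigen-experienced cells on the y axis and naive cells on the x axis, with the number of regions per grid cell in grey. The solid line is the median difference and the dashed lines lie 2-fold above and below it. Regions of chemokine and chemokine receptor genes (red circles) reach far above the upper line, and 9 of the cytokine receptor gene regions (blue squares) lie below the lower line, all of them in Tgfbr3.

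Pairs of libraries of the same group from the day 9 cultures give a measure of how far libraries differ without a change of group. The labels do not say whether those replicates were separate cultures. In the 7 such pairs the SD of the centred difference was 0.256 to 0.295, and 35 to 96 shared regions were past 2-fold (0.082 to 0.243%), none past 4-fold. The antigen-experienced and naive pair had 2041 past 2-fold. The high_to_high pair, whose windows also differed (172 and 136 bp), had an SD of 0.295 and 37 regions past 2-fold. The Jaccard index (the shared part of the union of both lists) was 0.664 for antigen-experienced and naive cells. That was below 6 of the 7 replicate pairs (0.686 to 0.744) and above the high_to_high pair (0.650). The SD and the share past 2-fold of the splenocyte pair thus lay outside the range of the replicate pairs, and its Jaccard index lay inside that range, near the lower end.

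**Figure D2:**
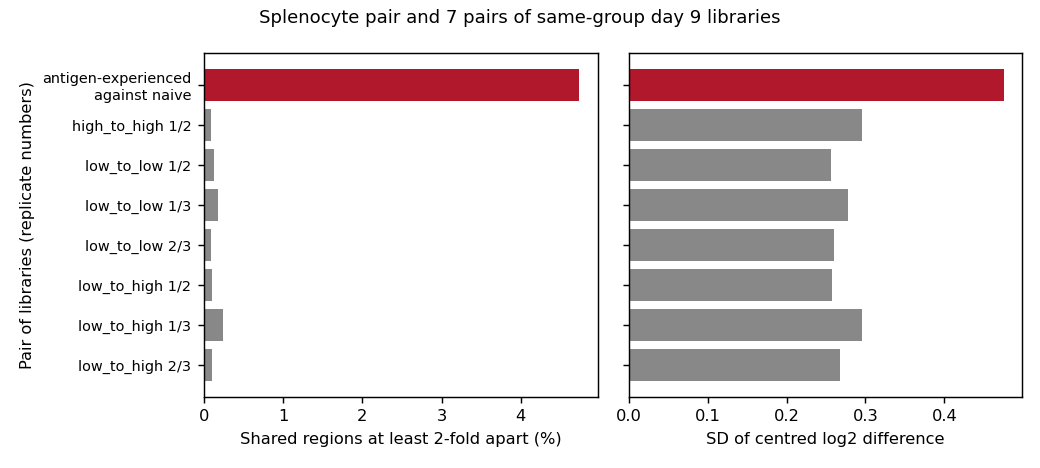
Share of shared regions at least 2-fold apart (left, %) and SD of the centred log2 difference over shared regions (right) for antigen-experienced against naive cells (red, top) and for the 7 pairs of same-group day 9 libraries (grey). The splenocyte pair had 4.74% past 2-fold and an SD of 0.475, against at most 0.243% and 0.295 in the replicate pairs.

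The genes behind the sort were examined first. Cd44 had 10 shared regions, and 6 of them were at least 2-fold higher in antigen-experienced cells and none lower. Its strongest change lay inside the gene (chr2:102812786-102812988), with 37.3 in antigen-experienced and 3.46 in naive cells. The region 185 bp from its start held 33.7 in antigen-experienced and 12.1 in naive cells, a difference of 1.24. Since the cells were separated by CD44, this checks the labels and is no finding. Tcf7 had 6 shared regions with differences of -0.53 to 0.14, and the strongest of them held 137.4 in antigen-experienced and 114.5 in naive cells.

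Among 22 effector genes, 9 of 113 shared regions (7.96%) were higher and none lower, against 3.66% and 1.07% of all shared regions, and the median difference was 0.21, against at most 0.02 in either direction in the replicate pairs. Ifng, which encodes interferon-gamma, had the largest difference. The region printed above at its promoter held 70.7 in antigen-experienced and 11.9 in naive cells, a difference of 2.31. Relative to the median region that was 5.28-fold, with a 95% interval of 3.75 to 7.46 (exact conditional binomial interval on tags, for counting error only, as are all intervals below). Folds given with an interval use values without a pseudocount and their own median (0.17 in log2). They therefore lie farther from 1 than the differences beside them. Regions with an interval were picked for the size of their difference, which the intervals do not take into account. A region 23260 bp from the gene held 69.7 in antigen-experienced and 24.3 in naive cells. Regions 5288 and 10004 bp from it held 55.6 and 51.6 in antigen-experienced cells and were not called in naive cells, the nearest naive peaks being 5109 and 2818 bp away. In all, 2 of 12 shared Ifng regions were higher and none lower, 4 regions were gained and 5 lost, and none of the 5 had an antigen-experienced peak within 1 kb.

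The T-box factors Eomes and T-bet (Tbx21), which drive memory and effector programmes in CD8 T cells, each had higher regions. A region 61417 bp from Eomes held 43.7 in antigen-experienced and 7.86 in naive cells (difference 2.17), while the strongest region of the gene differed by only 0.17. Near Tbx21, a region 1608 bp outside the gene held 52.4 in antigen-experienced and 14.3 in naive cells (1.64), and the region at its start held 33.2 in antigen-experienced and 12.0 in naive cells (1.23). Zeb2, a repressor that acts with T-bet in effector cells, had a region with 47.3 in antigen-experienced and 12.5 in naive cells (1.68). The granzyme genes varied. Regions 22169 and 25564 bp from Gzmb, a protease of cytotoxic granules, differed by 1.29 and 1.1. Gzmm had a region of 55.8 in antigen-experienced cells that was not called in naive cells. Gzma and Prf1, which encodes perforin, had 0 of 1 and 0 of 3 shared regions past 2-fold. Prdm1, whose product Blimp-1 drives terminal differentiation, had 6 shared regions between -0.20 and 0.35, none past 2-fold, and 5 gained regions of 5.11 to 20.9.

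Chemokines and their receptors had the highest share of higher regions among the 13 gene lists. Of 56 shared regions of 14 genes, 14 (25%, against 3.66% of all shared regions) were higher and 1 lower, with a median difference of 0.19, against at most 0.09 in replicate pairs. Xcl1 encodes a chemokine that attracts cross-presenting dendritic cells. Its promoter held 37.9 in antigen-experienced and 3.86 in naive cells, a difference of 2.84 and 8.73-fold relative to the median region (interval 5.11 to 17.2), and 4 of its 11 shared regions were higher. Ccl4 and Ccl5 encode chemokines that attract leukocytes to inflamed tissue. A region in Ccl4 held 61.8 in antigen-experienced and 7.6 in naive cells (2.71). All 3 shared regions of Ccl5 were higher, the strongest with 92.9 in antigen-experienced and 16.5 in naive cells (2.26).

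Among the receptor genes, Cxcr3, which guides memory and effector T cells to inflamed tissue, had a region 3151 bp outside the gene with 47.7 in antigen-experienced and 6.13 in naive cells (2.61), and its promoter held 28.3 in antigen-experienced and 8.93 in naive cells (1.40). Ccr2 had a region 5762 bp from the gene of 30.3 in antigen-experienced cells and the nearest naive peak was 3549 bp away. The 4 shared regions of Ccr2 differed by only -0.8 to 0.19. A region inside Cxcr5, a receptor best known for entry to B cell follicles, held 76.5 in antigen-experienced and 24.1 in naive cells (1.47). The lower region lay 12887 bp from Cxcr1, with 5.97 in antigen-experienced and 12.9 in naive cells (-1.16). Higher regions were therefore found at both ligand and receptor genes of this list, but several receptor genes, Ccr2 and Cxcr1 among them, had none.

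**Figure D3:**
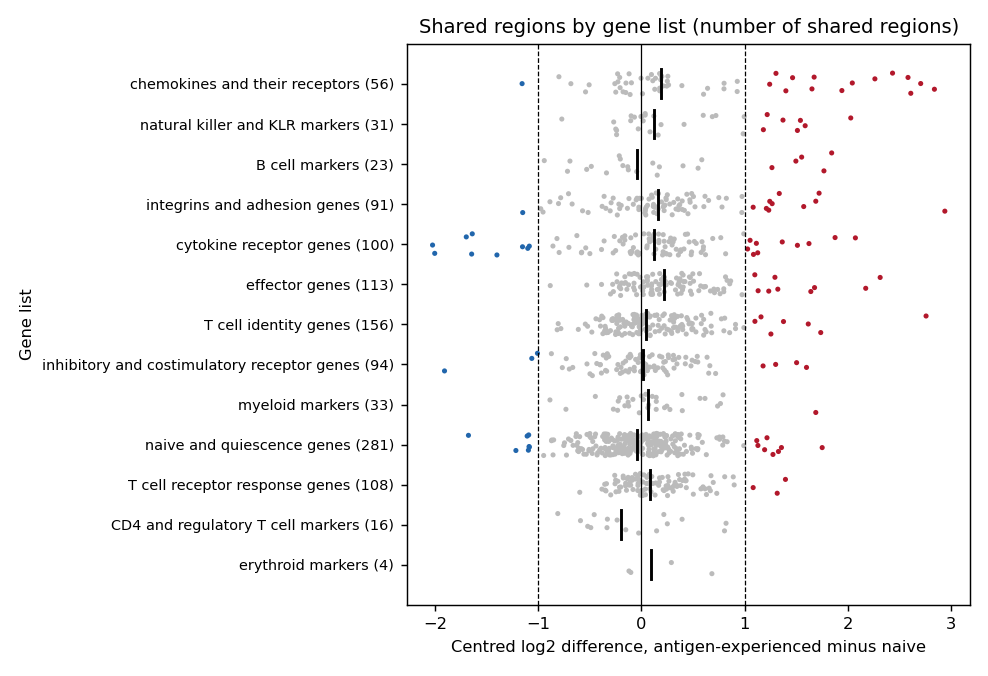
Centred log2 difference of antigen-experienced minus naive cells for every shared region of the 13 gene lists (1 point a region), lists ordered by their share of higher regions. Red points were at least 2-fold higher, blue points at least 2-fold lower (dashed lines), and the black bar is the median of the list. The chemokine list had 14 of 56 points to the right of the upper line, and all 9 lower points of the cytokine receptor list belonged to Tgfbr3.

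Cytokine receptor genes moved in both directions. Of 100 shared regions of 18 genes, 10 were higher and 9 lower (3.66% and 1.07% of all shared regions), and all 9 lower ones belonged to 1 gene, Tgfbr3. Il2rb, the beta chain through which interleukin-2 and interleukin-15 signal, had regions with 39.2 in antigen-experienced and 8.79 in naive cells (1.88) and with 54.8 in antigen-experienced and 16.5 in naive cells (1.51). Further Il2rb regions of 30.5 and 21.7 in antigen-experienced cells had no naive peak nearer than 7249 bp. Il18rap, the accessory chain of the interleukin-18 receptor, had an internal region with 28.8 in antigen-experienced and 5.33 in naive cells (2.07), and its promoter differed by 1.03. Il18r1, the partner chain, had a region that differed by 1.37. Il2ra, the inducible alpha chain, had 7 shared regions between -0.70 and 0.43, and a gained region of 37.5 in antigen-experienced cells whose nearest naive peak was 5355 bp away.

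Tgfbr3 encodes betaglycan, a co-receptor that presents transforming growth factor beta to its signalling receptors. It had 33 regions, of which 9 of 16 shared ones were lower and none higher, 15 were called in naive cells alone and 2 in antigen-experienced cells alone. The median difference of its shared regions was -1.09. Inside the gene, chr5:107148368-107148557 held 6.39 in antigen-experienced and 25.9 in naive cells, a difference of -2.03 and 0.219-fold relative to the median region (interval 0.118 to 0.381). The region chr5:107223143-107223315 held 5.97 in antigen-experienced and 24.0 in naive cells (-2.0), and chr5:107201603-107201778 held 13.2 in antigen-experienced and 40.2 in naive cells (-1.70). Its strongest region, 26449 bp outside the gene, held 57.1 in antigen-experienced and 60.8 in naive cells (-0.25), and 8 of the 9 lower regions lay inside the gene.

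**Figure D4:**
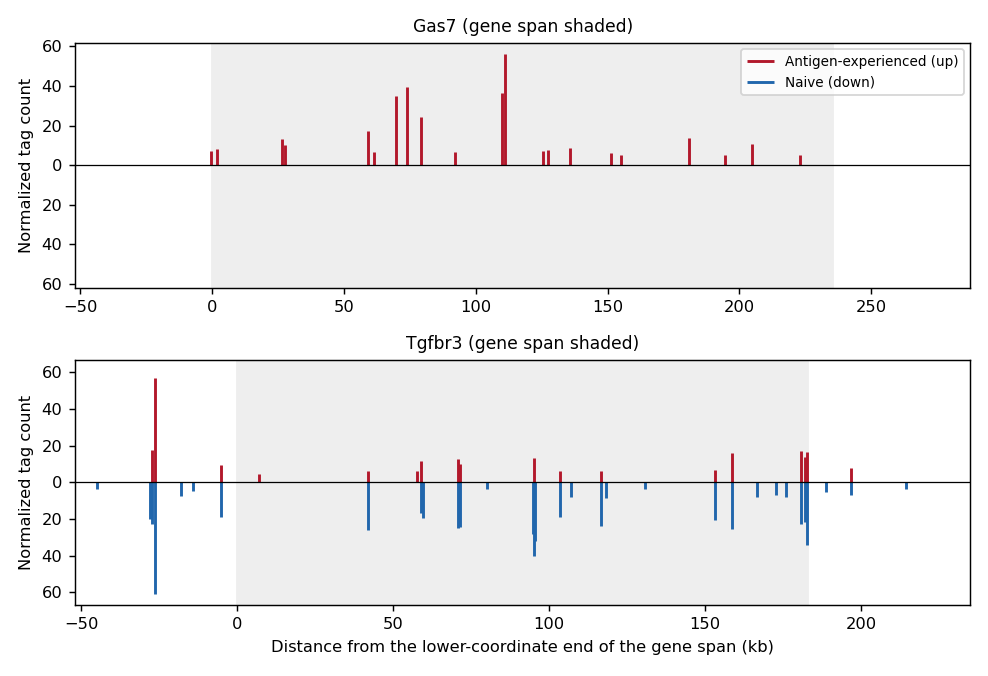
Normalized tag counts of the regions in and around Gas7 (top) and Tgfbr3 (bottom), by distance in kb from the lower-coordinate end of the gene span, with antigen-experienced values drawn upward in red and naive values downward in blue, and the gene span shaded. In and beside the Gas7 span 21 regions of antigen-experienced cells, 20 of them assigned to Gas7, stand with no naive peak, while inside Tgfbr3 the antigen-experienced value is below the naive one at every shared region.

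Integrin and adhesion genes had 10 of 91 shared regions higher (11%, against 3.66% of all shared regions) and 1 lower, but 6 of the 10 belonged to Cd44. The others included regions 14978 bp from S100a6 (19.4 in antigen-experienced and 4.53 in naive cells, 1.72) and inside S100a4 (29.8 in antigen-experienced and 10.9 in naive cells, 1.21), which encode calcium-binding proteins, and a region 1316 bp from Itgam, the alpha chain of Mac-1, with 48.8 in antigen-experienced and 12.8 in naive cells (1.69). Itga1, a collagen-binding integrin chain, had 1 shared region, with a difference of 0.07, and 5 gained ones of 5.11 to 9.37, so that its gain rested on weak peaks. A region in Itga4 was lower, with 4.69 in antigen-experienced and 10.3 in naive cells (-1.15).

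A list of 17 natural killer and KLR markers, some of them receptors that memory CD8 T cells also carry, had 7 of 31 shared regions higher (22.6%, against 3.66% of all shared regions) and none lower. The Klra genes encode Ly49 receptors for class I molecules. The promoter of Klra1 held 24.7 in antigen-experienced and 7.06 in naive cells (1.51). Regions near Klra3, Klra9 and Klra7 differed by 2.03, 1.54 and 1.18, and since these genes are close copies of each other, reads may have been placed on the wrong member. Klrk1, which encodes the activating receptor NKG2D, had a region with 32.0 in antigen-experienced and 10.4 in naive cells (1.37), and Klrc1, an inhibitory lectin receptor, one with 44.3 in antigen-experienced and 16.4 in naive cells (1.22). Within 1 kb of their spans, defining markers of natural killer cells gave little signal. Peaks were found there for 1 of 5 in antigen-experienced cells (summed value 8.31) and for 2 of 5 in naive cells (13.72). Ncr1, Klra8 and Tyrobp had none there in either list. That window is narrower than the nearest-gene rule behind the list. By that rule Ncr1 had no region, and Klra8 had 1 shared region (difference 0.6) and 2 gained ones. Tyrobp had 3 shared regions with a median difference of 0.99, the strongest with 81.0 in antigen-experienced and 72.6 in naive cells. The 5 shared regions of Klrb1c differed by -0.77 to 0.02. None of these shared regions counted as higher or lower.

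Shared regions of genes of naive and quiescent T cells showed no common direction. Of 281 shared regions of 24 genes, 8 (2.85%) were higher and 7 (2.49%) lower, against 3.66% and 1.07% of all shared regions, and the median difference was -0.05, against up to 0.13 in either direction in the replicate pairs. Of the 450 regions of these genes, 42 were gained and 127 lost. No peak of the other list lay within 1 kb of 25 and 80 of them. Of all 64877 regions, 7112 were gained and 14665 lost, with 4473 and 8534 left by that requirement. Lost regions thus made up a larger part of the regions of this list than of all regions, and gained ones a smaller part. The part of depth in this was not tested. The largest difference lay 58403 bp from Bach2, a repressor that keeps T cells from effector differentiation, with 15.8 in antigen-experienced and 3.46 in naive cells (1.75). Itgae, the alpha chain of CD103, had regions in both directions: one held 5.33 in antigen-experienced and 17.1 in naive cells (-1.68), and another 34.1 in antigen-experienced and 11.5 in naive cells (1.33). A region 43738 bp from Myb, a transcription factor gene, held 19.8 in antigen-experienced and 6.26 in naive cells (1.36). Regions near Dapl1 (1.27) and S1pr1 (1.22), which encodes a receptor for exit from lymph nodes, were higher as well. A region 10192 bp from Ccr9, a gut-homing receptor of naive CD8 T cells, held 30.7 in antigen-experienced and 59.6 in naive cells (-1.10). In Tgfbr2, a signalling receptor for transforming growth factor beta, a region held 19.2 in antigen-experienced and 41.0 in naive cells (-1.22). Lef1, a factor related to TCF-1, had 1 of 20 shared regions lower, with 7.88 in antigen-experienced and 15.9 in naive cells (-1.09). Foxp1, which keeps naive cells quiescent, had 1 higher and 2 lower of 42 shared regions. Il7r, Ccr7, Klf2 and Foxo1 had 2, 7, 4 and 14 shared regions and none past 2-fold. Gained and lost regions numbered 0 and 0 at Il7r, 1 and 5 at Ccr7, 1 and 1 at Klf2, and 2 and 7 at Foxo1. At Lef1 they numbered 1 and 8, and at Bach2 7 and 17. Of the 32 shared regions of Bach2, 1 was higher and none lower.

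T cell identity genes had 7 of 156 shared regions higher (4.49%, against 3.66% of all shared regions) and none lower, of which 4 lay in Tcf12, an E-protein gene, and 2 at Gata3. A region 55307 bp from Gata3 held 64.1 in antigen-experienced and 7.6 in naive cells (2.76), the largest difference of this list. Genes of the T cell receptor response had 3 of 108 shared regions higher (2.78%, below the 3.66% of all shared regions) and none lower, near Fosb, Jun and Tnfaip3. Inhibitory and costimulatory receptor genes had 4 of 94 shared regions higher (4.26%) and 3 lower (3.19%), against 3.66% and 1.07% of all shared regions. The higher ones lay at Havcr2 (difference 1.6), Entpd1 (1.5), Btla (1.30) and Cd28 (1.18), and the lower ones at Cd226 (-1.91), Pdcd1 (-1.06) and Tox (-1.01). The Pdcd1 promoter printed above held 6.6 in antigen-experienced and 13.2 in naive cells. It was the only 1 of 6 shared Pdcd1 regions past 2-fold, and their median difference was 0.04. The strongest of the 6 held 110.4 in antigen-experienced and 96.9 in naive cells (0.03). Across all 13 lists and their 213 genes, 77 of 1098 shared regions (7.01%) were higher and 21 (1.91%) lower.

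**Figure D5:**
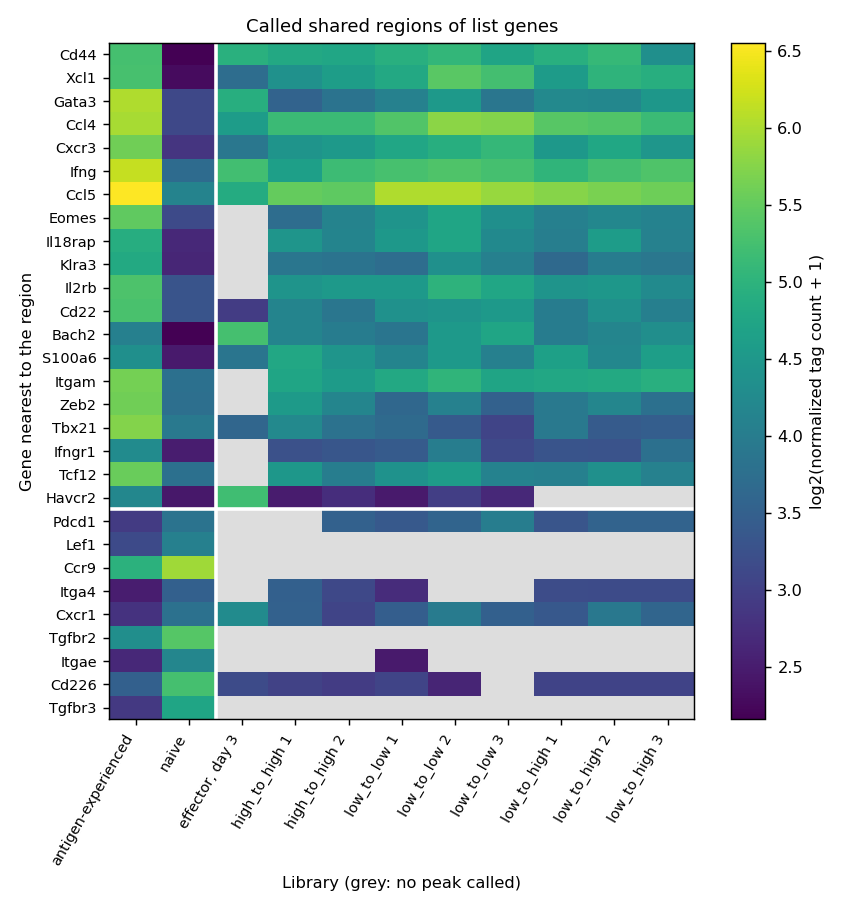
Values as log2(normalized tag count + 1) in all 11 libraries for 29 list genes with a shared region past 2-fold, 1 region a gene (the one with the largest difference). The 20 genes above the white line were higher and the 9 below it lower in antigen-experienced than in naive cells, and grey marks libraries in which no peak was called. Regions of Ccl5, Ccl4 and Xcl1 were called in all 8 day 9 libraries, while those of Lef1, Ccr9, Tgfbr2 and Tgfbr3 were called in no cultured library.

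Markers of other cell types were looked up in the same way. B cell markers had 5 of 23 shared regions higher (21.7%, against 3.66% of all shared regions), 3 in Pax5 and 2 near Cd22. A region inside Pax5, the B cell lineage factor, held 59.7 in antigen-experienced and 17.5 in naive cells (1.55), and was called in all 8 day 9 libraries at 15.9 to 23.0. The summed value within 1 kb of the 6 B cell marker spans was 190.4 in antigen-experienced and 86.38 in naive cells, of which Pax5 held 138.8 in antigen-experienced and 39.39 in naive cells, while Cd79a and Ms4a1 had no peak in either list. Myeloid markers summed to 107.1 in antigen-experienced and 130.1 in naive cells, with no peak at Lyz2 or Csf1r in either list. Their list had 1 of 33 shared regions higher, the Itgam region above. Markers of CD4 and regulatory T cells summed to 176.9 in antigen-experienced and 168.9 in naive cells, and their list had 0 of 16 shared regions past 2-fold. Erythroid markers had 0 of 4. The CD8 T cell markers Cd8a, Cd8b1 and Cd3e summed to 278.5 in antigen-experienced and 275.3 in naive cells. Whether other cells had a part in the higher values was not tested.

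Among shared regions with a mean value of at least 20, the largest differences lay mostly at genes with no listed T cell role. The largest was inside Arhgap26, a GTPase-activating protein (chr18:39282118-39282387), with 88.4 in antigen-experienced and 3.33 in naive cells, a difference of 4.21 and 23.6-fold relative to the median region (interval 13.7 to 48.2). The naive value of this region rested on 12 tags, and the weakest naive peak on 10. A region 8727 bp from Ppp4r2, a phosphatase subunit, held 77.5 in antigen-experienced and 3.46 in naive cells (3.98). Regions inside Runx2 and Golga4 held 61.1 and 60.7 in antigen-experienced cells, against 3.46 and 4.26 in naive cells. Near or inside S100z, Armc2, Atxn1, Tef and Nek6 the differences were 3.07 to 3.29. Stat4, a transcription factor through which interleukins induce interferon-gamma, had a region with 51.6 in antigen-experienced and 4.66 in naive cells (3.06).

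The largest negative differences among these regions were smaller. A region 18800 bp from Fam3c held 7.67 in antigen-experienced and 34.9 in naive cells (-2.21), and one in Stra6, a vitamin A transporter gene, 8.31 in antigen-experienced and 37.3 in naive cells (-2.20). Xpo4, a nuclear transport receptor gene, differed by -2.08, Zfp800 by -2.04, Sspn by -1.98 and Cd226, an activating receptor gene, by -1.91. Ankrd50, Zfhx3, Uqcrfs1 and Tnks had regions between -1.86 and -1.78. Regions past 2-fold higher were found at 1111 of the 15076 genes with a region and lower ones at 341, and 28 genes had both. Rptor, a subunit of the mTOR complex, had 8 higher regions, Arhgap26 7 and Nmnat2 6, with no lower one at any of these genes.

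Most gained and lost regions of high value lay close to a peak of the other list. Of the 1366 gained regions of at least 20, 862 (63.1%) had a naive peak within 1 kb. Of the 2859 lost regions of at least 20, 2082 (72.8%) had an antigen-experienced peak within 1 kb. The 10 strongest gained regions lay 1 to 153 bp from a naive peak and the 10 strongest lost regions 10 to 273 bp from an antigen-experienced one. Sp1, Hbp1, Khsrp, Limk1, Per1 and Tpp2 were among the genes with a region in the 10 strongest on both sides. At Sp1, for example, a gained peak of 162.5 in antigen-experienced cells and a lost peak of 179.9 in naive cells lay beside the same promoter. Such pairs are counted as gained and lost because the windows did not touch.

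With no peak of the other list within 1 kb, 4473 gained regions (8.91% of the antigen-experienced regions) and 8534 lost regions (14.8% of the naive regions) were left, with median values of 6.82 and 4.80. Of the lost regions of this kind with a value of at least 20, 777 in number, 58.7% stood under 5-fold above their surroundings, close to the 4-fold the caller demands. Of the 504 gained ones it was 38.1%. Requiring 8-fold as well left 2020 gained and 3397 lost regions. Those of at least 20 then numbered 165 gained and 16 lost. The strongest gained ones lay inside Ankrd44 (109.5 in antigen-experienced cells), Gnptab (94.8), Rttn (81.0), Riok1 (73.3) and Nfatc1 (70.5). The strongest lost ones lay inside Bcl11b, a T cell lineage factor gene (40.8 in naive cells), 825 bp from Mob3a (39.7) and inside Clec2d (38.6).

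Gas7 stood first when genes were ranked by gained over lost regions. It encodes a protein that binds actin and was first studied in neurons. All 20 of its regions were gained, and none lay within 1 kb of a naive peak. The strongest, chr11:67564378-67564550, held 56.2 in antigen-experienced cells, and the others held 5.11 to 39.2. No naive peak was called over 784 kb, between positions 67112979 and 67897336 of chromosome 11, in which 21 regions in a row were called in antigen-experienced cells alone. In the replicate pairs the longest such run was 3 to 10 regions. The strongest Gas7 region was also called in effector cells, at 26.1, and in all 8 day 9 libraries, at 29.8 to 39.8. Of the 21 regions, 7 were called in effector cells, 15 in at least 1 day 9 library and 7 in all 8.

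Runx2, a runt-family factor best known from bone, came next, with 19 gained and 2 lost regions and 4 of its 16 shared regions higher. At its own start (chr17:44814512-44814684) antigen-experienced cells had a weak peak of 7.03 and naive cells none. The strong region at the start of Supt3, a gene that overlaps Runx2, held 66.0 in antigen-experienced and 63.7 in naive cells (-0.11). Samd3 had 6 regions, all gained, including one at its start with 45.8 in antigen-experienced cells, and 834 kb around it held no naive peak. The other genes ranked highest were Rap1gap2, Tmem163, 1700025G04Rik, Lrrk1, Stk32c, Cdc20b and Osbpl3, each with 6 to 9 gained and at most 2 lost regions. On the lost side Inpp4b, a phosphatase of phosphoinositide signalling, had 3 gained and 20 lost regions, and Tgfbr3 followed. Arpp21 had 10 lost regions of 3.46 to 11.9 in naive cells and none gained, and its 2 shared regions were also weaker in antigen-experienced cells (20.2 against 27.1 in naive cells, and 4.47 against 8.0). Rere, Tcf20, Cnot2, Ripor2, Zfp704, Nav2 and Ext1 had 10 to 14 lost and at most 3 gained regions. The naive library, in which these regions were called, was the deeper one.

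Most of the higher regions were also called in cultured cells, and a smaller share of the lower ones was. All 8 day 9 libraries called 72.1% of the 1579 higher regions, and the effector library called 56.2%. For the 462 lower regions the shares were 40.5% and 39.4%, and for the 41059 shared regions within 2-fold 65.0% and 65.7%. No cultured library called 4.31% of the higher, 18.6% of the lower and 4.40% of the other shared regions. Gained regions were called in effector cells in 32.8% and in all day 9 libraries in 21.3%, lost regions in 23.5% and 6.66%. Gained regions with no naive peak within 1 kb reached 32.3% and 25.6%, and lost ones with no antigen-experienced peak within 1 kb 22.6% and 7.27%. With 8-fold over the surroundings required as well, gained regions reached 43.6% and 35.9%, and lost ones 37.0% and 10.4%. All gained regions had a median value of 7.88 and all lost regions 6.4, and the part of level in these shares was not tested.

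The share of regions past 2-fold was smaller near gene starts than away from them. Within 1 kb of an annotated start, 1.33% of 10701 shared regions were higher and 0.178% lower. Farther away 4.47% of 31212 were higher and 1.36% lower. Regions near a start had a median mean value of 52.2, against 15.4 farther away, and the share past 2-fold varied with level. Of regions with a mean under 10, 3.28% were higher and 1.04% lower. At a mean of 10 to 20 the shares were 5.98% higher and 2.18% lower, at 20 to 50 they were 4.42% and 0.891%, and at 50 or more, where they were smallest, 0.557% and 0.105%. The part of level in the difference between promoters and distal regions was not tested. Of the higher regions 9.24% lay within 1 kb of a start, 52.6% elsewhere in a gene span and 38.2% between genes, against 26.4%, 41.5% and 32.2% of shared regions within 2-fold. On the X chromosome 1.94% of 1032 shared regions were higher and 0.678% lower.

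Motifs were counted in RefSeq promoter windows of 300 bases (250 before and 50 after the start), the only sequences of the build used here. Of 32619 windows, 9735 overlapped a shared region and 100 of these a higher one. The T-box letters AGGTGT occurred on either strand in 20% of the 100 windows, in 10.3% of the 9735 and in 13.8% of all, and the longer form AGGTGTGA, which contains them, in 6.0%, 0.801% and 1.28%. The E-box CACCTG, which can share letters with AGGTGT, occurred in 31%, 17.3% and 20.3%, and the RUNX letters TGTGGTT in 8.0%, 3.81% and 5.29%. The ETS letters CCGGAAGT, frequent at ubiquitous promoters, occurred in 5.0%, 10.4% and 3.91%. The letters CTTTGAT, bound by TCF-1 and LEF-1, occurred in 2.0%, 2.61% and 3.76%, and AP-1 letters TGANTCA in 4.0%, 4.43% and 7.85%. The other motifs were KLF CCCCACCC (15%, 10.8% and 10.1%), CAGCTG (18%, 14.1% and 16.4%), the NF-kB motif (3.0%, 0.431% and 0.414%), the IRF motif (1.0%, 2.97% and 3.46%) and the core of the CTCF motif (0%, 0.308% and 0.110%). Only 14 windows overlapped a lower region, and AGGTGT occurred in 21.4% of them (3 windows) and CACCTG in 35.7% (5 windows). These 2 motifs were thus no less frequent there than in windows with a higher region. Windows with a gained or lost region and no peak of the other list within 1 kb numbered 195 and 229. They held AGGTGT in 15.4% and 9.61%, and CACCTG in 15.9% and 24.5%. With 100 windows, 1 window is 1%, and these shares are descriptions of letters without a test of binding.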

How the data were processed

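Peak lists deposited for 11 ATAC-seq libraries of mouse CD8 T cells were used as they stand. Per the file headers, peaks were called with HOMER 4.10 findPeaks separately for each library without a control. The settings were a false discovery rate of 0.001, a local enrichment of 4-fold within 10 kb, and a local Poisson p-value no higher than 1e-04. The deposited normalized tag count, a signal value, is scaled to 10 M tags per the file headers; the deposited fold over local background (a ratio) was used to describe gained and lost regions, and the deposited score and p-value columns were not otherwise used. Bowtie2, DESeq2 and build mm10 are named in the submitters' processing notes without settings.

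Peaks on chromosomes 1 to 19 and X were merged where they shared 1 bp or more, with Python 3.11.15, pandas 2.3.3, numpy 2.4.6 and scipy 1.17.1. The number of merged regions was checked against bedtools, and the steps were tested on simulated lists. Peaks elsewhere, 0.0876% of the antigen-experienced and 0.104% of the naive list, were left out. A region took its strongest peak in each library. Differences used a pseudocount of 1, which understates changes of low values, and were centred on the median of shared regions, a past-2-fold difference counting as higher or lower. With 1 library a side, no test was run. Regions went to the nearest protein-coding gene span, at most 100 kb away, of RefSeq on GRCm38.p6. A gene was found for 95.8%. Nearness is no evidence that a region acts on that gene. All 213 list genes were in the table, and 157 had a promoter window.

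The regions, gene lists and measures were chosen with earlier results of these data known. Named genes were the 10 largest positive and the 10 largest negative differences among shared regions with a mean of at least 20, the 10 strongest gained and lost regions, the 10 genes with most gained over lost regions and the reverse, and from each list the called regions in order of size. Genes named beyond this, runs of regions and the requirements of no peak within 1 kb and of 8-fold over the surroundings were chosen after the values were seen. Some genes of the lists are not reported here.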

Additional observations from a re-analysis of the deposited data

How the results depend on the processing

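All 20 shared regions named for their size kept their direction and stayed past 2-fold in the 80 values computed under alternatives. These regions were picked for their large differences, and the alternatives only rescale the same values. That outcome was therefore largely fixed by the choice and is no check of the regions. Counts moved more. With a pseudocount of 5 in place of 1, 820 shared regions were higher and 166 lower, 9 of the lower ones at list genes. Without centring, 250 were lower, 9 of them at list genes, and 90.3% of regions past 2-fold were higher. Requiring a value of at least 20 (for shared regions a mean of 20, centred on its own median) left 1366 gained, 2859 lost and 21633 shared regions, with 615 higher and 113 lower, 44 and 6 at list genes, and 41.1% of the gained ones called in effector cells. Requiring an overlap of at least 50% of the narrower peak gave 11852 gained regions. Keeping peaks at least 8-fold over their surroundings gave 4175 gained and 28341 shared regions, with 961 higher and 270 lower, 43 and 13 at list genes. Among alternatives chosen after seeing the data, joining peaks within 500 bp left 9264 lost regions. Allowing no peak of the other list within 1 kb left 4473 gained and 8534 lost regions, 22.6% of the lost ones called in effector cells, and kept 6 of the 10 genes with most lost over gained regions. The fewer regions come from the stricter rules themselves; for the other settings the cause was not tested. Of the 13 list medians, 2 changed sign without centring and 2 with 8-fold over the surroundings required. Quantile normalization (which gives both libraries the same distribution of values), a mean of at least 20 and an overlap of at least 50% each changed 1. So did joining peaks within 500 bp, keeping regions at most 250 bp wide and merging over all 11 lists. The B cell median was -0.05, and 1.29 at a mean of at least 20. No paired analysis was possible because each splenocyte group had 1 library. Depth limits weak regions: a peak at the lower end rested on 8 tags in antigen-experienced and 10 tags in naive cells.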

Other observations

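The longest run of regions called in naive cells alone lay on chromosome 14 between positions 53806372 and 54153132, and Dad1, the gene that borders the T cell receptor alpha locus, was the protein-coding gene within 100 kb of its last regions. It held 15 regions in a row with values of 3.20 to 11.2 in naive cells, and no peak of antigen-experienced cells was called over 377 kb. None of the 15 was called in effector cells or in any of the 8 day 9 libraries. In the 7 replicate pairs the longest run of regions called in 1 library alone was 3 to 10. The values are low and the naive library was deeper than the antigen-experienced one. The gene annotation used holds no T cell receptor gene segments, so whether the run lies inside the receptor alpha locus was not examined. The parts of depth and of that locus in the run were not tested.

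The next longest run in naive cells alone, 12 regions on chromosome 17 between 52204410 and 52351472 with values of 3.33 to 9.59, lay in a stretch with no protein-coding gene within 100 kb of the regions. Of the 12 regions, 1 was called in effector cells and 2 in at least 1 day 9 library. At Pde4d, a phosphodiesterase gene, 8 regions in a row on chromosome 13 were called in naive cells alone, at 2.80 to 8.26. In antigen-experienced cells alone the runs after that at Gas7 were 8 regions each around Dera and Tshz3, spread over 2520 and 1350 kb, and 7 each around Samd3 and Rap1gap2, over 121 and 94.2 kb.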
